A study of Homo sapiens with 32 samples.

Results

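The 46 genes described here form the engine and the checkpoints of the cell cycle: the G1/S cyclins and their kinases, the mitotic cyclins and CDK1, the CDK inhibitors, the RB family, the E2F factors, the CDC25 phosphatases with WEE1, the mitotic kinases and the spindle checkpoint, the origin licensing factors, and the proliferation markers MKI67 and TOP2A. They were chosen by function and not by any measured value, though with earlier results of these data known. A peak was counted for a gene if it overlapped the gene body of the RefSeq annotation of GRCh38 by 1 bp or more. Of the 46 genes, 40 carried a peak in 1 or more of the 12 peak lists of the study, among 19154 genes of all kinds that did. The study mapped N6-methyladenosine (m6A) by MeRIP-seq, an assay that enriches methylated fragments with an antibody against m6A before sequencing. Its design text speaks of RNA associated with chromatin, while the molecule field of the labels gives total RNA for the colorectal samples and only "other" for the ovarian ones, so which RNA was sequenced rests on the design text. OVCAR8 and SKOV3 are ovarian cancer cell lines, and LOVO and RKO are lines of colon adenocarcinoma. In each line the genotype field of the labels gives the controls as WT and the other group as METTL3 knockdown. The titles give the ovarian controls as shControl and the knockdowns of all 4 lines as shMETTL3. METTL3 is the catalytic subunit of the main m6A methyltransferase, and a short hairpin RNA lowers the RNA it matches. No drug, dose or time is given. OVCAR8 and SKOV3 had 2 peak lists per group, and LOVO and RKO 1 list per group, so these lines have no replicates here. The labels do not state whether replicates were grown separately, so a p-value measures only the spread between lists, which may be technical.

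The cell cycle is driven by cyclin-dependent kinases, whose activity rises and falls with their cyclins. In G1 the D-type cyclins activate CDK4 and CDK6, which phosphorylate the RB proteins and so free the E2F factors to switch on the genes of DNA replication and mitosis. Inhibitors of the INK4 and CIP/KIP families restrain these kinases, and WEE1 and the CDC25 phosphatases set the activity of CDK1 at entry into mitosis. Within RNA, m6A is known for its place in long exons and near stop codons, where reader proteins bind it and affect how long the transcript lasts. In RNA bound to chromatin it is also found in transcripts that are still being made.

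Seen from the knockdown lists, member peaks were shared more with the control of the other ovarian line than with that of their own label. The lists labelled OVCAR8 knockdown shared 96.6% of their member peaks with the SKOV3 control lists and 87.7% with the OVCAR8 control lists, beside 95.9% and 69.3% over all peaks. With the lists labelled SKOV3 knockdown they shared 93.8% of member peaks, beside 70.8% over all peaks. The lists labelled SKOV3 knockdown shared 76.0% of theirs with the OVCAR8 control lists and 55.3% with the SKOV3 control lists, beside 81.9% and 56.5% over all peaks. Seen from the controls, OVCAR8 control again shared more member peaks with the lists labelled SKOV3 knockdown (76.0%) than with those labelled OVCAR8 knockdown (39.9%), but SKOV3 control shared 71.2% with the lists labelled SKOV3 knockdown and 53.1% with the lists labelled OVCAR8 knockdown. Each is a mean over 4 pairs of lists, and replicates of 1 group shared 85.6% to 90%. Values within the ovarian lines are therefore given as labelled, and also against the control of the other ovarian line. LOVO knockdown shared 57.5% of its member peaks with LOVO control and 65.8% with RKO control, while over all peaks the order was the reverse, 73.1% and 61.6%. The list labelled RKO knockdown shared 54.6% of its member peaks with RKO control and held peaks in 0 of 8 colorectal marker genes, where LOVO control had peaks in 6 of 8 and RKO control in 2 of 8. Of 7 ovarian marker genes, 5 had a peak in OVCAR8 control, 2 in the lists labelled OVCAR8 knockdown, 3 in SKOV3 control and 5 in the lists labelled SKOV3 knockdown. LOVO control had peaks in 2 of the 7, LOVO knockdown and RKO control in 1 each, and the list labelled RKO knockdown in 0. KRT8, 1 of the 2 colorectal marker genes with a peak in RKO control, also had peaks in every ovarian list. Both sets of marker genes were chosen with earlier results of these data known. The 12 lists held between 15484 and 37398 peaks. More or fewer peaks on a transcript cannot be told apart here from more or less of that transcript, since RNA levels of the input libraries were not analysed here.

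The starts of several members carried peaks, and the sequences of 4 of them are shown because a peak reached into the window around the annotated start. RefSeq windows of GRCh38.p14, each from 250 bases before the start of a transcript to 50 bases after it, were held for 35 of the 46 members. Of these 35 members, 10 had a peak on their own strand in such a window in 1 or more lists, where 16.7% of protein-coding genes had. Capitals mark the bases covered by a peak in 1 or more lists on the strand named, and each sequence is written along the strand of its gene. The first is the start of CDC6, which loads the replicative helicase onto origins (chr17:40287629-40287928, plus strand). A peak on the strand of the gene reached into it in all 8 ovarian lists and in both LOVO lists. It covered 103 bases in LOVO control and 78 to 81 in each of the other 9 lists.
CDC6: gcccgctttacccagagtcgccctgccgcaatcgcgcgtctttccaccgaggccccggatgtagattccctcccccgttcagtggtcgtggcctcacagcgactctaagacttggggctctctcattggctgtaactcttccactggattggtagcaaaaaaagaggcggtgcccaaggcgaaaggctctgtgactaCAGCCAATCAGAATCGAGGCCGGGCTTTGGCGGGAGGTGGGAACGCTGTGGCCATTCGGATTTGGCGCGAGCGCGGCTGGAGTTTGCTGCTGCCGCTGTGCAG
The second is the start of BUB1B, which encodes a spindle checkpoint kinase-like protein (chr15:40160819-40161118, plus strand). A peak covered between 42 and 58 of its bases in 10 lists, all but LOVO control and the list labelled RKO knockdown.
BUB1B: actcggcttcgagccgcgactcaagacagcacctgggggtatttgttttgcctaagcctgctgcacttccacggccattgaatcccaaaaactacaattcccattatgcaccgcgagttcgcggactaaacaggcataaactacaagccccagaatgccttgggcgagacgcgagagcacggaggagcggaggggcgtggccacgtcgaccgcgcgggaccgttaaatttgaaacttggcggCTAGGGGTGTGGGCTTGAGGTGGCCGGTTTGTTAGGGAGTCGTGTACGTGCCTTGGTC
The third is an annotated start of CDK6, a D-cyclin kinase (chr7:92833910-92834209, minus strand), which lies 2.61 kb inside the gene body. A peak on the strand of the gene reached into it in 11 lists, all but LOVO control. It covered 248 bases in the list labelled RKO knockdown, 61 to 91 in the ovarian lists, 21 in LOVO knockdown and 20 in RKO control, so most of the capitals come from 1 list.
CDK6: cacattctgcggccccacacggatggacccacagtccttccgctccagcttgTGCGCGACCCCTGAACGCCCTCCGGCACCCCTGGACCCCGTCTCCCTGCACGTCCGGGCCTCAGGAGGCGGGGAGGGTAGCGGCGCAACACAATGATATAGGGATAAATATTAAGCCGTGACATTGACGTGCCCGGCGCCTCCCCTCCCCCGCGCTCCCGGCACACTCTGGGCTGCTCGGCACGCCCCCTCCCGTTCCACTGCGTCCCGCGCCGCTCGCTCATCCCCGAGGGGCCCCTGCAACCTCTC
The fourth is a start of CDKN2C, an inhibitor of CDK4 and CDK6, that lies 9.5 kb inside the gene body (chr1:50969995-50970294, plus strand). Its capitals mark bases under a peak on the opposite strand, 111 to 124 per list, seen in 5 lists: the OVCAR8 controls, those labelled SKOV3 knockdown and the RKO knockdown.
CDKN2C: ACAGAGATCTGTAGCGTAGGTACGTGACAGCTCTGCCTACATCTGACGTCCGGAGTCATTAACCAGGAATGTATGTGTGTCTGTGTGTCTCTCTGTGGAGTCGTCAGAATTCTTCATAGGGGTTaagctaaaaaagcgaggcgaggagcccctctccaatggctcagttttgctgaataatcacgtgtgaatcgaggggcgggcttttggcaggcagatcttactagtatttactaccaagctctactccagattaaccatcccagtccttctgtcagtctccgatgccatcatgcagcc
The letters GGAC, a core of the sequence in which m6A is often placed, were searched on the strand of the peak. They occurred 0 times in the CDC6 window, 2 times in the BUB1B window with 0 in the covered part, 2 times in the CDK6 window with 1 in the covered part, and 2 times on the opposite strand of the CDKN2C window with 1 in the covered part. Of 35116 windows of this length, 66.3% hold GGAC on the strand of the gene and 66.1% on the other strand. The longer form GGACT, which contains GGAC, occurs in 25.3% on either strand. A match is a description of these letters only.

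Member genes carried between 42 and 97 peaks per list. OVCAR8 control had 81 and 90 member peaks and the lists labelled OVCAR8 knockdown 47 and 42. SKOV3 control had 65 and 65 and the lists labelled SKOV3 knockdown 84 and 85. LOVO had 72 in control and 73 in knockdown, and RKO 94 and 97. The member total was thus lower in knockdown in OVCAR8 as labelled, higher in SKOV3 as labelled, and within 3 peaks of control in LOVO and RKO. The whole lists held 28237 and 28774 peaks in OVCAR8 control and 15484 and 15744 in those labelled OVCAR8 knockdown, so both fell there. In SKOV3 they held 28918 and 29102 in control and 26178 and 26865 in knockdown. In LOVO control and knockdown they held 36242 and 31060, and in RKO 37398 and 34015. The share of the 46 members with a peak stood above that of protein-coding genes in every list. In OVCAR8 control 28 and 29 members had a peak, where 37.2% and 37.5% of protein-coding genes had one, and in the lists labelled OVCAR8 knockdown 17 and 18 members, where 29% and 29.6% of protein-coding genes had. In SKOV3 control it was 26 and 25 members, beside 39% and 39.3% of protein-coding genes, and in the lists labelled SKOV3 knockdown 26 and 26, beside 36.7% and 37.3%. In LOVO 27 members had a peak in control and 30 in knockdown, beside 47.1% and 44.5% of protein-coding genes. In RKO it was 31 and 26, beside 48% and 47.3%. As percentages, members with a peak ranged from 37.0% in the first OVCAR8 knockdown list to 67.4% in RKO control. The median gene length was 19.5 kb among members and 24.2 kb among protein-coding genes.

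**Figure D1:**
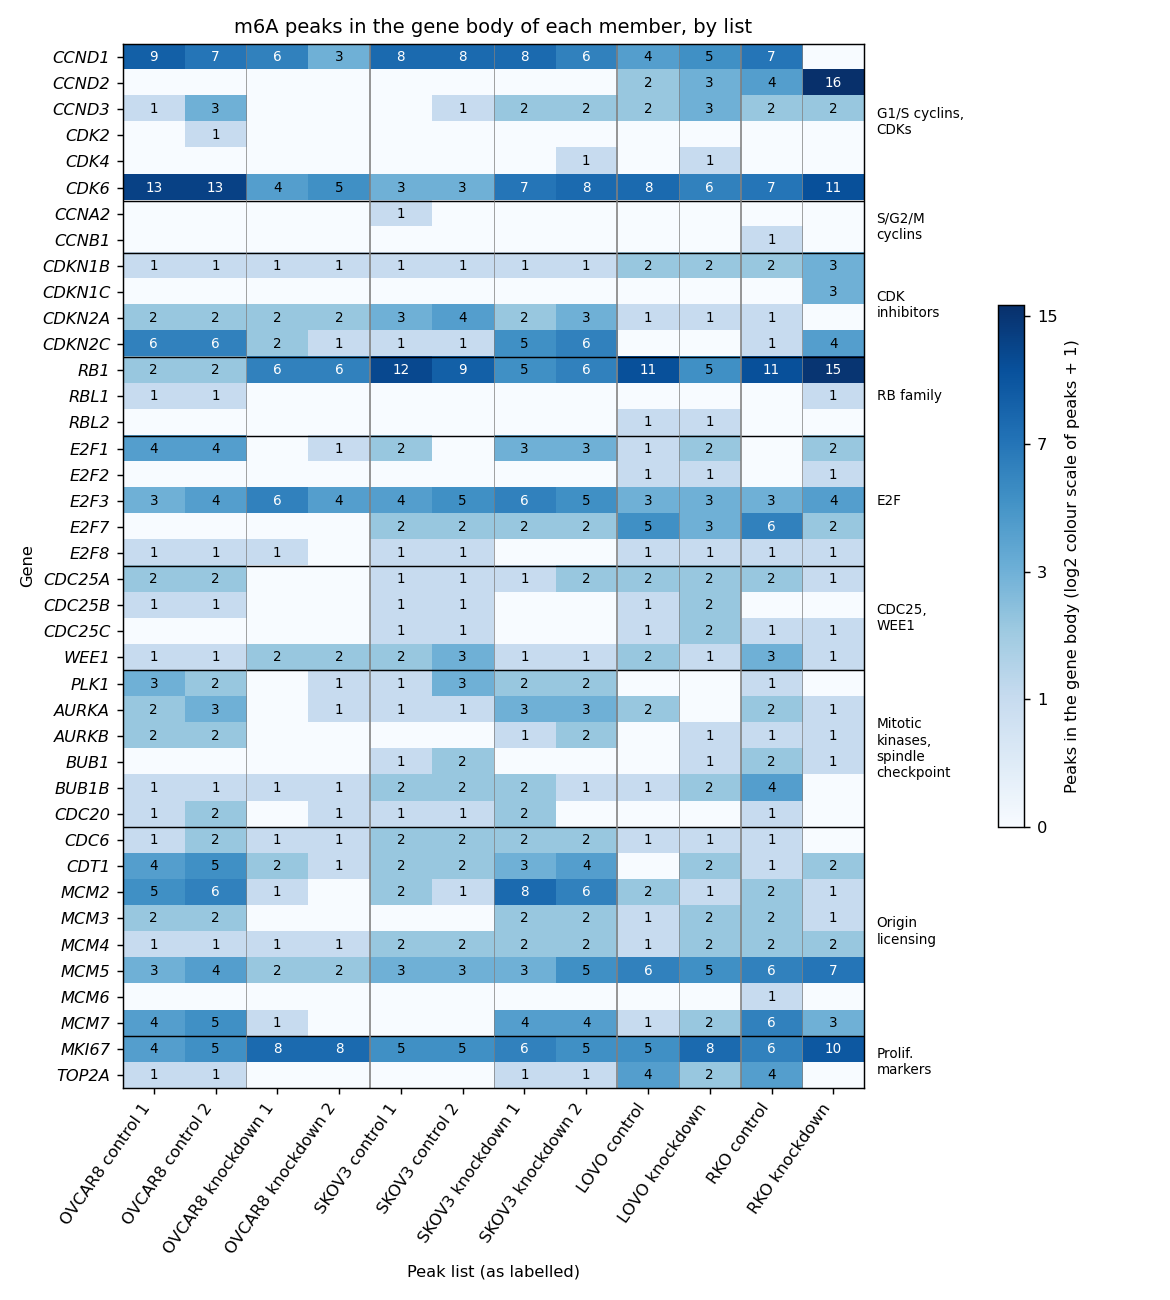
Number of m6A peaks in the gene body of the 40 members with a peak, by list as labelled (columns), with genes in rows grouped by role. Cells print the count, blank cells are 0, and the colour follows log2 of peaks + 1. CDK6, RB1, MKI67 and CCND1 have the most, and CCND2 has peaks in the LOVO and RKO lists only.

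Members with a peak in every list numbered 8 of 46, where 18.7% of protein-coding genes had one in every list. They were CDK6, CDKN1B, RB1, E2F3, WEE1, MCM4, MCM5 and MKI67. Members with no peak in any list numbered 6, where 33.3% of protein-coding genes had none. These were CCNE1, CCNE2, CCNB2, CDK1, TTK and MAD2L1. A further 5 members had a peak in 1 list only, namely CDK2, CCNA2, CCNB1, CDKN1C and MCM6. Across the 46 members the mean number of peaks in control and the gene length had a Spearman rho of 0.30, a description over genes that share the same lists.

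Among the G1/S cyclins and their kinases, 2 genes of large peak numbers, CCND1 and CDK6, went different ways in different lines. CCND1 (chr11:69641156-69654474) encodes cyclin D1, which activates CDK4 and CDK6. It had 9 and 7 peaks in the OVCAR8 controls, 6 and 3 in the lists labelled OVCAR8 knockdown, 8 and 8 in the SKOV3 controls, 8 and 6 in the lists labelled SKOV3 knockdown, 4 and 5 in LOVO control and knockdown, and 7 and 0 in RKO. Knockdown lists were lower without overlap in OVCAR8 and level or lower in SKOV3. With 1 list per group, knockdown was lower in RKO and higher in LOVO. Covered bases went the other way in OVCAR8, where CCND1 peaks spanned 2424 and 2409 bases in control and 4655 and 4084 in knockdown. The region at the start of the gene (chr11:69641064-69646824) was 1 unbroken peak of 5730 and 5758 bases in SKOV3 control and 6 separate peaks in each OVCAR8 control list. It was present in 11 lists, with a highest deposited fold enrichment of 4.56 and 4.19 in OVCAR8 control, 7.98 and 8.19 in the lists labelled OVCAR8 knockdown, 13.4 and 21.2 in the SKOV3 controls, and 8.60 and 7.95 in the lists labelled SKOV3 knockdown. In RKO the list labelled knockdown held 0 peaks anywhere in CCND1, and all 7 control regions of RKO were lost.

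CCND2, which encodes cyclin D2, showed the opposite pattern to CCND1 in RKO. It had 0 peaks in all 8 ovarian lists, 2 and 3 in LOVO control and knockdown, and 4 and 16 in RKO control and knockdown. Its peak number was thus highest in the list labelled RKO knockdown, which lacked CCND1 peaks. The strongest of the 16 had a deposited score of 54.2, above 99.7% of the peaks of that list, and it lay on the minus strand within 2 kb of the lower end of the gene (chr12:4273762-4305353). CCND2-AS1, an antisense RNA gene, overlaps 8 of the CCND2 peaks of all lists, so those 8 could belong to either gene. The counts above take peaks of both strands together. The strand of CCND2 was not in the tables used here. No control region of CCND2 was lost, 0 of 2 in LOVO and 0 of 4 in RKO.

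CDK6 (chr7:92604921-92836573, minus strand) is a long gene whose kinase pairs with the D-type cyclins. It had 13 and 13 peaks in the OVCAR8 controls, 4 and 5 in the lists labelled OVCAR8 knockdown, 3 and 3 in the SKOV3 controls, 7 and 8 in the lists labelled SKOV3 knockdown, 8 and 6 in LOVO control and knockdown, and 7 and 11 in RKO. The OVCAR8 and SKOV3 groups did not overlap, and the sign was opposite between the lines. Against the other ovarian control, CDK6 kept all 3 SKOV3 control regions in the lists labelled OVCAR8 knockdown and lost 5 of 12 OVCAR8 control regions in the lists labelled SKOV3 knockdown. As labelled it lost 8 of 12 regions in OVCAR8 and 0 of 3 in SKOV3, while LOVO lost 6 of 8 and RKO 1 of 7. A pair of regions was common to 11 lists each, one over the inner start printed above and one 59.2 kb into the gene, the first missing from LOVO control and the second from RKO control. The 5 merged regions further than 100 kb from the gene start were each in 6 lists or fewer.

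The remaining G1/S genes had few peaks. CCND3, the third D-type cyclin gene, had 1 and 3 peaks in the OVCAR8 controls, 0 and 0 in the lists labelled OVCAR8 knockdown, 0 and 1 in the SKOV3 controls, 2 and 2 in the lists labelled SKOV3 knockdown, 2 and 3 in LOVO, and 2 and 2 in RKO. Its most common region, in 9 lists, lay on the strand opposite to the gene, 113 kb from the annotated start. CDK4, the partner kinase of CDK6, had 1 peak in the second list labelled SKOV3 knockdown and 1 in LOVO knockdown. CDK2, the kinase of the E-type cyclins, had 1 peak in the second OVCAR8 control list. The E-type cyclin genes CCNE1 and CCNE2 had none.

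The cyclins of S phase, G2 and mitosis and their kinase CDK1 had almost no peaks. CCNA2 had 1 peak in the first SKOV3 control list and CCNB1 1 peak in RKO control. CCNB2 and CDK1, which encode a B-type cyclin and the mitotic kinase, had none in any list. This group of 4 genes held 2 of the 895 member peaks of the 12 lists.

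The CDK inhibitors differed among themselves in how steady their peaks were. CDKN1B (chr12:12717368-12722369, plus strand), an inhibitor of the CIP/KIP family that binds cyclin-CDK complexes, had 1 peak in each of the 8 ovarian lists, 2 and 2 in LOVO control and knockdown, and 2 and 3 in RKO. It lost 0 regions in all 4 lines. Its region near the start (chr12:12717454-12718289) was in all 12 lists with 611 to 835 covered bases, and its fold enrichment was 14.1 and 14.1 in OVCAR8 control, 10.1 and 8.95 in the lists labelled OVCAR8 knockdown, 10.3 and 10.3 in the SKOV3 controls, and 6.48 and 6.69 in the lists labelled SKOV3 knockdown. These folds were lower without overlap in the knockdown lists of both lines as labelled. They were lower without overlap against the control of the other ovarian line too, by the least in the lists labelled OVCAR8 knockdown, where 10.1 and 8.95 stood below 10.3 and 10.3 in SKOV3 control. In LOVO the score was 4.53 in control and 6.49 in knockdown, and in RKO 6.93 and 15.9, so it was higher in knockdown in both. Folds of different lists are the authors' own and depend on depth, which was not held alike. By rank within its list, in percent, the ovarian peak stood at 94.4 and 94.7 in OVCAR8 control and 87.4 and 84.0 in the lists labelled OVCAR8 knockdown. In SKOV3 the rank went against the fold, with 85.3 and 85.8 in control and 88.4 and 88.8 in the lists labelled SKOV3 knockdown.

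CDKN2C (chr1:50960745-50974634, plus strand), an INK4 inhibitor of CDK4 and CDK6, had 6 and 6 peaks in the OVCAR8 controls, 2 and 1 in the lists labelled OVCAR8 knockdown, 1 and 1 in the SKOV3 controls, 5 and 6 in the lists labelled SKOV3 knockdown, 0 and 0 in LOVO, and 1 and 4 in RKO. High values were in OVCAR8 control and in the lists labelled SKOV3 knockdown, and the ovarian groups did not overlap. As labelled, CDKN2C lost 5 of 6 regions in OVCAR8, while against the lists labelled SKOV3 knockdown the same control lost 0 of 6. The peaks on the opposite strand over the inner start, whose sequence is printed above, were in the lists with most CDKN2C peaks.

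CDKN2A (chr9:21967752-21995324, minus strand) encodes INK4A, a CDK4 and CDK6 inhibitor, and ARF, a p53 activator. It had 2 and 2 peaks in the OVCAR8 controls, 2 and 2 in the lists labelled OVCAR8 knockdown, 3 and 4 in the SKOV3 controls, 2 and 3 in the lists labelled SKOV3 knockdown, 1 and 1 in LOVO, and 1 and 0 in RKO. A region near the 3′ end of the gene (chr9:21968114-21968477) was in all 8 ovarian lists and in 0 of the 4 colorectal lists. On the strand of the gene, a region at its outermost start was in LOVO control, LOVO knockdown and RKO control and in 0 of the 8 ovarian lists. The second SKOV3 control list held a peak there on the opposite strand. CDKN2B-AS1 overlaps these 4 peaks. A window of CDKN2A at an inner annotated start (chr9:21974808-21975107) held a peak on the strand of the gene in 5 ovarian lists, both of each control and the second labelled SKOV3 knockdown. CDKN1C, a second CIP/KIP gene in this group, had 3 peaks, all in the list labelled RKO knockdown.

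In the RB family nearly all peaks were in RB1. RB1 (chr13:48303751-48481890, plus strand), whose protein holds E2F factors inactive, had the highest mean number of peaks of all members, 7.5. It had 2 and 2 peaks in the OVCAR8 controls, 6 and 6 in the lists labelled OVCAR8 knockdown, 12 and 9 in the SKOV3 controls, 5 and 6 in the lists labelled SKOV3 knockdown, 11 and 5 in LOVO control and knockdown, and 11 and 15 in RKO. The ovarian groups did not overlap, RB1 being higher in knockdown in OVCAR8 and lower in SKOV3 as labelled, and lower in LOVO and higher in RKO. In covered bases it was 439 and 335 in OVCAR8 control, 2746 and 2708 in the lists labelled OVCAR8 knockdown, 8709 and 8159 in the SKOV3 controls, and 1556 and 1585 in the lists labelled SKOV3 knockdown. RB1 thus had fewer peaks in both knockdown groups than in the SKOV3 controls, and more in both than in OVCAR8 control. Most peaks gathered in 2 blocks, from 91.6 kb and from 113 kb into the gene, and 3 merged regions there were each in 11 lists. LPAR6, a receptor gene on the other strand inside RB1, overlaps 74 of the 90 RB1 peaks, of which 72 lay on the strand of RB1. RBL1 had 1 peak in each OVCAR8 control list and 1 in the list labelled RKO knockdown, and RBL2 had 1 in each LOVO list. Both encode RB-related proteins.

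E2F3 was the one E2F gene with a peak in every list. E2F3 (chr6:20401879-20493714, plus strand), an activating E2F, had 3 and 4 peaks in the OVCAR8 controls, 6 and 4 in the lists labelled OVCAR8 knockdown, 4 and 5 in the SKOV3 controls, 6 and 5 in the lists labelled SKOV3 knockdown, 3 and 3 in LOVO, and 3 and 4 in RKO. The groups touched in both ovarian lines, at 4 peaks in OVCAR8 and 5 in SKOV3. It had 2 regions in all 12 lists, one at the start of the gene and one 88.2 kb into it, near its end. The start region ranked among the strongest peaks of the ovarian lists, above 98.6% to 99.6% of the peaks of each, with folds of 15.6 to 24.5. LOC124901482, an uncharacterised gene, overlaps 20 of the E2F3 peaks. E2F1, another activator, had 4 and 4 peaks in the OVCAR8 controls, 0 and 1 in the lists labelled OVCAR8 knockdown, 2 and 0 in the SKOV3 controls, 3 and 3 in the lists labelled SKOV3 knockdown, 1 and 2 in LOVO, and 0 and 2 in RKO. It was lower in knockdown without overlap in OVCAR8 and higher in the other 3 lines as labelled.

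E2F7, an atypical E2F that represses transcription, had 0 and 0 peaks in the OVCAR8 controls, 0 and 0 in the lists labelled OVCAR8 knockdown, 2 and 2 in the SKOV3 controls, 2 and 2 in the lists labelled SKOV3 knockdown, 5 and 3 in LOVO, and 6 and 2 in RKO. Its 0 in the lists labelled OVCAR8 knockdown matched the OVCAR8 control and not the SKOV3 control, and its 2 in the lists labelled SKOV3 knockdown matched the SKOV3 control. E2F8, the second atypical E2F, had 0 or 1 peak in every list, with a peak in 9 of 12. CSRP3-AS1 overlaps all 9 of these peaks. E2F2, an activator, had 1 peak in each LOVO list and in the list labelled RKO knockdown.

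Among the regulators of CDK1 phosphorylation, WEE1 (chr11:9573670-9589985), the kinase that inhibits CDK1, had a region at its lower end in all 12 lists. WEE1 had 1 and 1 peaks in the OVCAR8 controls, 2 and 2 in the lists labelled OVCAR8 knockdown, 2 and 3 in the SKOV3 controls, 1 and 1 in the lists labelled SKOV3 knockdown, 2 and 1 in LOVO, and 3 and 1 in RKO. It was lower in knockdown in SKOV3, LOVO and RKO and higher in OVCAR8 as labelled. Where its peak number was lower its peak was wider: the region was 1 peak of 1778 and 1798 bases in OVCAR8 control, 2 peaks covering 874 and 828 bases in the lists labelled OVCAR8 knockdown, and 1 peak of 1775 and 1774 bases in the lists labelled SKOV3 knockdown. CDC25A, a phosphatase that activates CDKs at G1/S and in mitosis, had 2 and 2 peaks in the OVCAR8 controls, 0 and 0 in the lists labelled OVCAR8 knockdown, and 1 or 2 in each other list. CDC25B had 0 to 2 peaks and CDC25C 0 to 2 peaks per list, each with a peak in 6 of 12.

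The mitotic kinases and spindle checkpoint genes had few peaks each. AURKA (chr20:56369390-56392215), the kinase of centrosomes and spindle poles, had 2 and 3 peaks in the OVCAR8 controls, 0 and 1 in the lists labelled OVCAR8 knockdown, 1 and 1 in the SKOV3 controls, 3 and 3 in the lists labelled SKOV3 knockdown, 2 and 0 in LOVO, and 2 and 1 in RKO. It was lower without overlap in knockdown in OVCAR8 and higher in SKOV3 as labelled. LOVO and RKO, with 1 list per group, each had fewer in knockdown. AURKB, the kinase of the chromosomal passenger complex, had 2 and 2 peaks in the OVCAR8 controls, 0 and 0 in the lists labelled OVCAR8 knockdown, 0 and 0 in the SKOV3 controls, and 1 and 2 in the lists labelled SKOV3 knockdown. In LOVO it had 0 and 1, and in RKO 1 and 1, where the control peak lay on the opposite strand and the knockdown peak on the strand of the gene. PLK1, the kinase of mitotic entry, had 0 to 3 peaks with a peak in 8 lists, and all 4 of its control regions over 3 lines were lost as labelled. Against the other ovarian control, PLK1 and AURKB lost 0 regions.

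BUB1B, whose start is printed above, had 1 or 2 peaks in each ovarian list, 1 and 2 in LOVO, and 4 and 0 in RKO. Its LOVO control peak was lost and both LOVO knockdown peaks were elsewhere in the gene. BUB1, the checkpoint kinase, had 0 to 2 peaks with a peak in 5 lists, and CDC20, the activator of the anaphase-promoting complex, 0 to 2 with a peak in 7. The other spindle checkpoint genes TTK and MAD2L1 had none.

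Origin licensing genes had 16 peaks fewer in knockdown than in control in OVCAR8 as labelled, by the means of 2 lists, 22.5 in control and 6.5 in knockdown. The G1/S genes had 14.5 fewer, 23.5 and 9, and the mitotic genes 7 fewer, 9.5 and 2.5. The RB family and the proliferation markers had more in knockdown. The whole lists also held fewer peaks, 28237 and 28774 in OVCAR8 control and 15484 and 15744 in those labelled OVCAR8 knockdown. These group differences were not tested. The 8 genes together had 20 and 25 peaks in the OVCAR8 controls, 8 and 5 in the lists labelled OVCAR8 knockdown, 11 and 10 in the SKOV3 controls, 24 and 25 in the lists labelled SKOV3 knockdown, 12 and 15 in LOVO, and 21 and 16 in RKO. The values of the lists labelled OVCAR8 knockdown lay nearest to SKOV3 control, and those labelled SKOV3 knockdown to OVCAR8 control. MCM2 (chr3:127598411-127622436, plus strand), a subunit of the replicative helicase, had 5 and 6 peaks in the OVCAR8 controls, 1 and 0 in the lists labelled OVCAR8 knockdown, 2 and 1 in the SKOV3 controls, 8 and 6 in the lists labelled SKOV3 knockdown, 2 and 1 in LOVO, and 2 and 1 in RKO. It was lower in knockdown without overlap in OVCAR8 and higher in SKOV3 as labelled. LOVO and RKO, with 1 list per group, each had fewer in knockdown. In LOVO the covered bases of MCM2 went the other way, 459 in control and 523 in knockdown. MCM7 (chr7:100092728-100101397, minus strand), another helicase subunit, had 4 and 5 peaks in the OVCAR8 controls, 1 and 0 in the lists labelled OVCAR8 knockdown, 0 and 0 in the SKOV3 controls, 4 and 4 in the lists labelled SKOV3 knockdown, 1 and 2 in LOVO, and 6 and 3 in RKO. AP4M1 overlaps 5 of the MCM7 peaks, near the start of MCM7. Most MCM7 regions of RKO control and a region of OVCAR8 control lay on the strand opposite to the gene.

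MCM5 (chr22:35400140-35455031) was the licensing gene with most peaks on average. It had 3 and 4 peaks in the OVCAR8 controls, 2 and 2 in the lists labelled OVCAR8 knockdown, 3 and 3 in the SKOV3 controls, 3 and 5 in the lists labelled SKOV3 knockdown, 6 and 5 in LOVO, and 6 and 7 in RKO. A region at the upper end of the gene (chr22:35453216-35454088) was in all 12 lists, and its score was 16.7 in LOVO control, 13.2 in LOVO knockdown, 12.2 in RKO control and 10.7 in RKO knockdown. CDT1 (chr16:88803789-88809258, plus strand), which works with CDC6 to load the helicase, had 4 and 5 peaks in the OVCAR8 controls, 2 and 1 in the lists labelled OVCAR8 knockdown, 2 and 2 in the SKOV3 controls, 3 and 4 in the lists labelled SKOV3 knockdown, 0 and 2 in LOVO, and 1 and 2 in RKO. It was lower in knockdown in OVCAR8 and higher in the other 3 lines as labelled. Regions on the strand opposite to CDT1 were in 5 and 7 lists.

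CDC6 had 1 or 2 peaks in every list but the one labelled RKO knockdown, which had 0. MCM4 had 1 or 2 in every list and lost 0 regions in all 4 lines. MCM3 had 2 and 2 in OVCAR8 control, 0 and 0 in the lists labelled OVCAR8 knockdown, 0 and 0 in the SKOV3 controls, 2 and 2 in the lists labelled SKOV3 knockdown, 1 and 2 in LOVO, and 2 and 1 in RKO. MCM6 had 1 peak, in RKO control. All of these encode helicase subunits or, for CDC6, the loader.

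MKI67 (chr10:128096659-128126423, minus strand), the widely used marker of cycling cells, had more peaks in knockdown than in control in all 4 lines by their means. It had 4 and 5 peaks in the OVCAR8 controls, 8 and 8 in the lists labelled OVCAR8 knockdown, 5 and 5 in the SKOV3 controls, 6 and 5 in the lists labelled SKOV3 knockdown, 5 and 8 in LOVO, and 6 and 10 in RKO. The groups did not overlap in OVCAR8 and touched at 5 in SKOV3. LOVO and RKO, with 1 list per group, each had more in knockdown. Covered bases did not follow: they were 9827 and 9743 in OVCAR8 control, 8688 and 8298 in the lists labelled OVCAR8 knockdown, 9713 and 9680 in the SKOV3 controls, 9717 and 9768 in the lists labelled SKOV3 knockdown, 3217 and 8757 in LOVO, and 10995 and 7506 in RKO. Covered bases were thus lower in knockdown in OVCAR8 and RKO, where peak number was higher. A single stretch of 6828 bases (chr10:128102626-128109453) was 1 and 2 peaks in OVCAR8 control and 5 and 5 peaks in the lists labelled OVCAR8 knockdown. It was 2 peaks in each SKOV3 list, 0 and 3 in LOVO, and 1 and 5 in RKO. The higher number of peaks in OVCAR8 and RKO thus lay in this stretch, which held more peaks and fewer covered bases in knockdown.

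TOP2A (chr17:40388525-40417896, minus strand), the DNA topoisomerase of dividing cells, had 1 and 1 peaks in the OVCAR8 controls, 0 and 0 in the lists labelled OVCAR8 knockdown, 0 and 0 in the SKOV3 controls, 1 and 1 in the lists labelled SKOV3 knockdown, 4 and 2 in LOVO, and 4 and 0 in RKO. It was lower in knockdown in 3 lines and higher in SKOV3 as labelled. Knockdown lacked 1 of 1 control regions in OVCAR8, 2 of 4 in LOVO and 4 of 4 in RKO, and 0 of 1 for OVCAR8 control against the lists labelled SKOV3 knockdown.

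**Figure D2:**
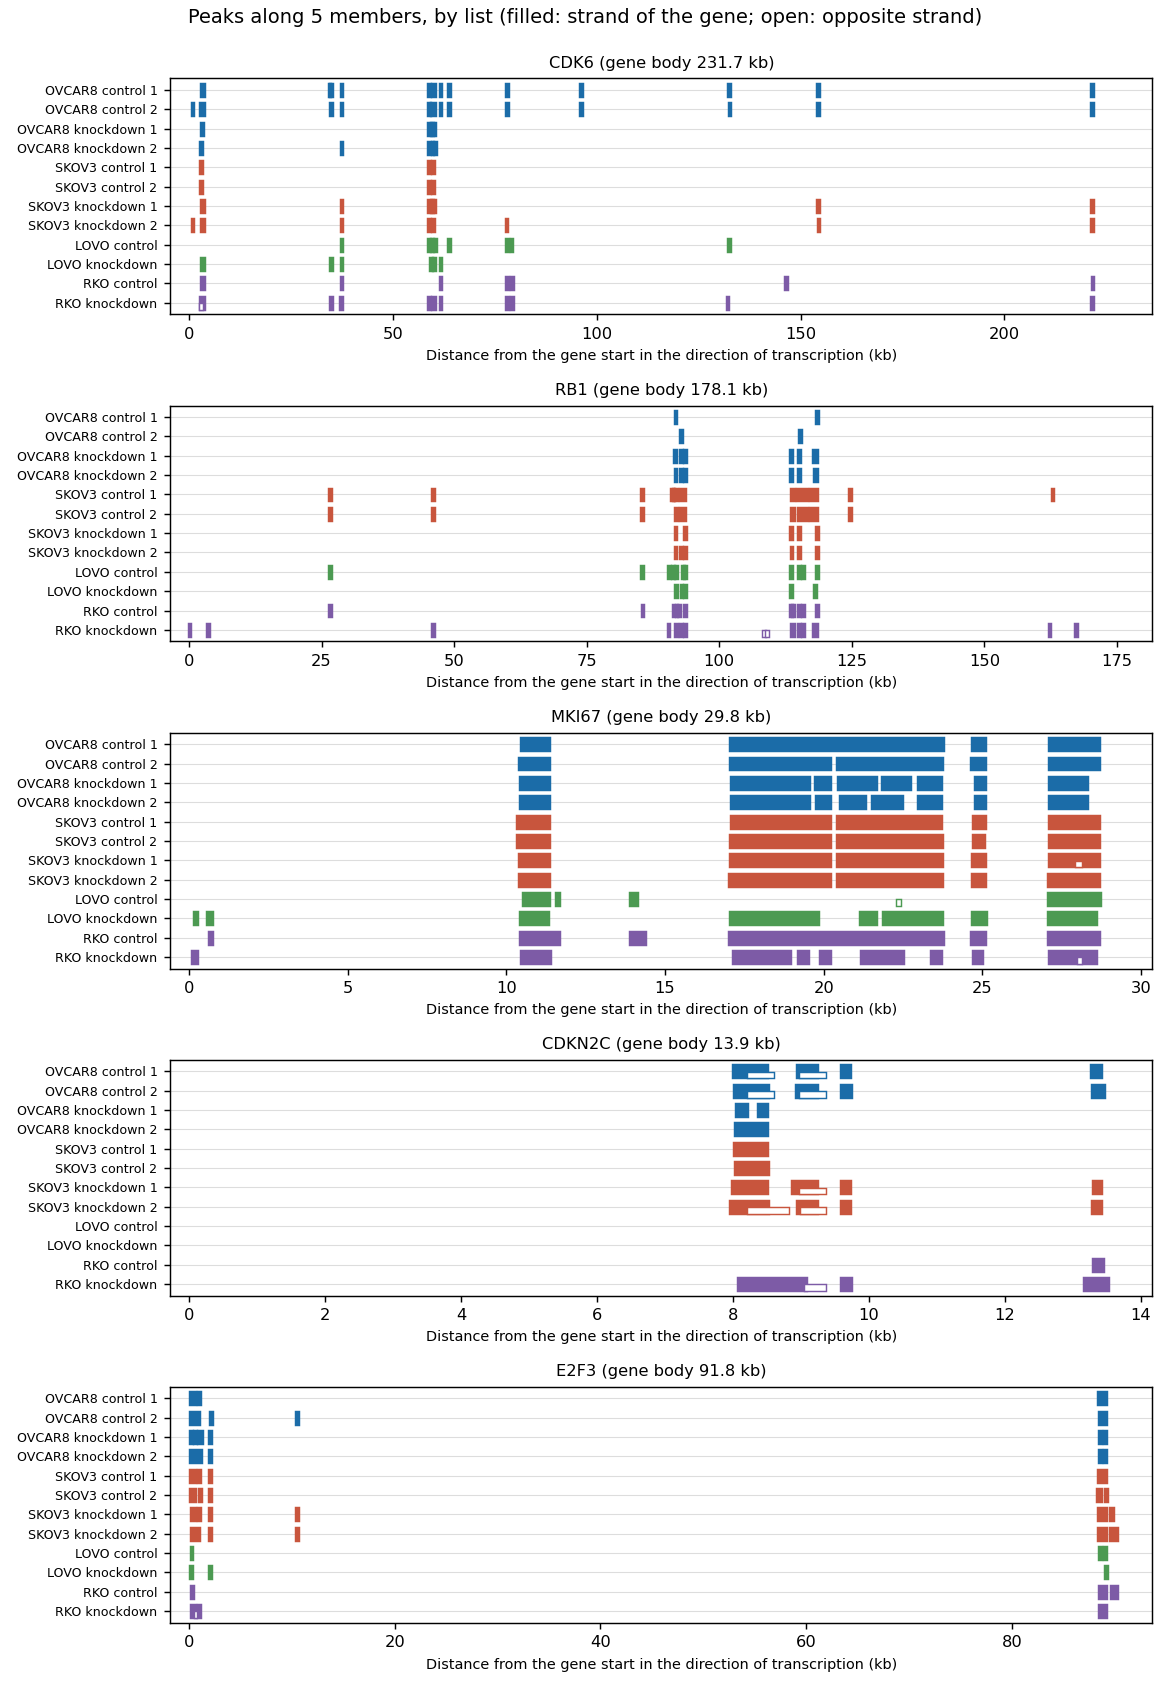
Peaks along CDK6, RB1, MKI67, CDKN2C and E2F3 by list, against the distance from the gene start in kb along the direction of transcription. Filled bars lie on the strand of the gene and open bars on the opposite strand, colours mark the cell line as labelled, and very narrow peaks are drawn at a minimum width. The widest stretch of MKI67 is 1 or 2 peaks in OVCAR8 control and 5 in the lists labelled OVCAR8 knockdown, and the CDKN2C peaks of OVCAR8 control recur in the lists labelled SKOV3 knockdown.

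The first comparison asked which m6A regions of these genes were lost with METTL3 knockdown. A region is a stretch of merged peaks on 1 strand that is present in every control list of a line, and it is lost if no peak of any knockdown list overlaps it. In OVCAR8 as labelled, 38 of 70 member regions were lost, or 54.3% (95% exact Clopper-Pearson interval 41.9 to 66.3), where 56.7% of control regions in all genes were lost. With equal numbers of peaks taken from every list, the member value was 28.6%. All genes were not recomputed under that setting, so it cannot be set against the 56.7%. In SKOV3 as labelled it was 14 of 58, or 24.1% (13.9 to 37.2), where 42.2% were lost in all genes. In LOVO it was 29 of 72, or 40.3% (28.9 to 52.5), beside 36.9% in all genes, and in RKO 43 of 94, or 45.7% (35.4 to 56.3), beside 59.6%. The member share was below that of all genes in OVCAR8, SKOV3 and RKO and above it in LOVO. The intervals cover counting error only and treat regions as independent, which regions of 1 gene are not, so they are too narrow. The difference between members and all genes was not tested.

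Against the control of the other ovarian line, the values changed as the shared peaks did. Of the 70 OVCAR8 control regions, 11 (15.7%) had no peak in the lists labelled SKOV3 knockdown, where 14% of regions in all genes had none. Of the 58 SKOV3 control regions, 20 (34.5%) had no peak in the lists labelled OVCAR8 knockdown, beside 43.2% in all genes. OVCAR8 control thus lost fewer member regions against the other line's knockdown lists than as labelled, and SKOV3 control lost more, 34.5% against 24.1%.

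**Figure D3:**
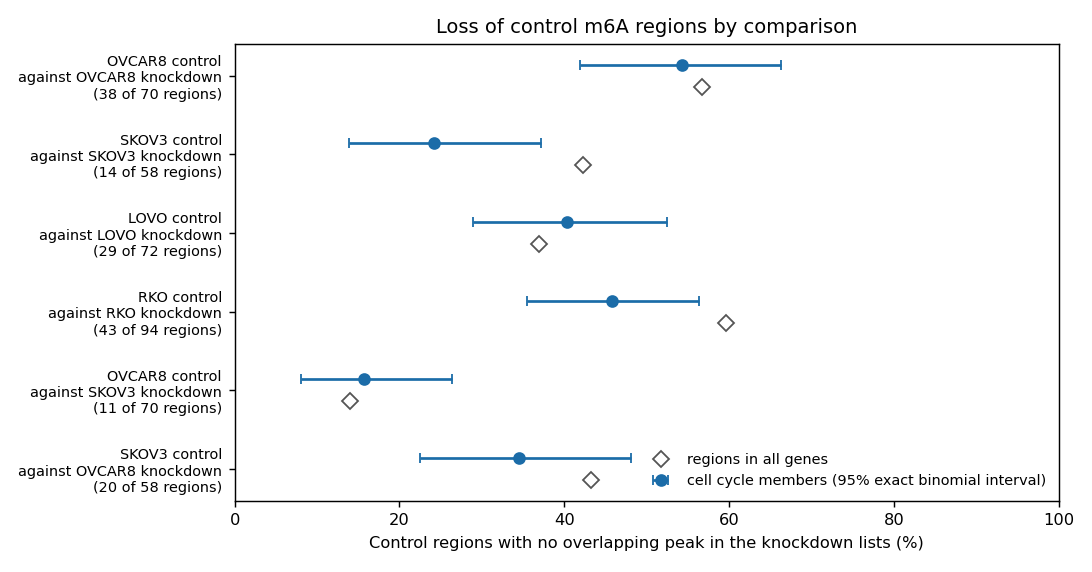
Percent of control regions with no overlapping knockdown peak, for the members (circles, 95% exact binomial interval) and for regions in all genes (diamonds), by comparison. The member value is 54.3% in OVCAR8, with SKOV3 at 24.1%, LOVO at 40.3% and RKO at 45.7% as labelled, and 15.7% for OVCAR8 control against the lists labelled SKOV3 knockdown.

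Regions found only in knockdown were counted the same way. In OVCAR8 as labelled, 2 of 34 knockdown regions of the members had no control peak (5.88%), where 24.3% in all genes had none. In SKOV3 it was 27 of 72 (37.5%), beside 35.5%, in LOVO 31 of 73 (42.5%), beside 26.9%, and in RKO 44 of 97 (45.4%), beside 51.9%. Against the other ovarian control, 0 of 34 regions of the lists labelled OVCAR8 knockdown lacked a peak of SKOV3 control, which allows a share of up to 10.3% by the exact interval, beside 1.78% in all genes. For the lists labelled SKOV3 knockdown it was 10 of 72 against OVCAR8 control (13.9%), beside 8.82%. In RKO 12 of the 44 gained regions were in CCND2 and 8 in RB1.

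Lost regions were narrower and weaker than kept ones in each line. An overlap of 1 bp keeps a region, so wide regions are the more readily kept by definition. Widths over all genes were not compared. The median width was 282 bases for lost and 517 for kept regions in OVCAR8, 279 and 502.5 in SKOV3, 217 and 314 in LOVO, and 236 and 338 in RKO. The median rank of the strongest peak, as a percent of the list by −log10 p or score, was 35.3 for lost and 71.4 for kept regions in OVCAR8, 30.3 and 67.7 in SKOV3, 45.0 and 59.5 in LOVO, and 33.8 and 51.5 in RKO. Control regions were also split into 3 equal parts of each line by that rank. In the strongest part, members lost 5 of 22 regions in OVCAR8, beside 33.2% for all genes, and 0 of 20 in SKOV3, beside 24.6%. LOVO lost 6 of 24, or 25%, beside 13.3%, and RKO 6 of 21, beside 39.0%.

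By gene, 36 members had a control region in 1 or more lines. Of these, 5 lost no region in any line as labelled, where 12.9% of all genes with a control region lost none. A region was lost in 3 lines by 9 of the 36 and in 4 lines by 0, where 20.5% of all such genes lost one in 3 or 4 lines. The 9 were AURKA, CCND1, CDC25A, CDK6, MCM2, MCM5, PLK1, RB1 and TOP2A. Those with a control region in all 4 lines and 0 lost were CDKN1B and MCM4. Of the 187 merged regions of the members over all lists, 8 were in all 12 lists (4.28%, beside 5.84% of 78603 in all genes). They lay in MKI67 (2), E2F3 (2), WEE1, CDKN1B, MCM5 and MCM4. Another 55 were in 1 list only, 29.4% of the member regions beside 36.3% in all genes.

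Peak number per gene was compared list by list within each line. In OVCAR8 as labelled, 17 of 29 members with a peak had fewer peaks in both knockdown lists than in both control lists, where 46.3% of all genes did, and 3 had more, beside 15.3%. In SKOV3, 6 of 32 had fewer, beside 31.6%, and 11 more, beside 26.4%. In LOVO 8 of 31 had fewer, beside 43.1%, and 15 more, beside 25.8%. In RKO 17 of 35 had fewer, beside 46%, and 13 more, beside 36.5%. Of 34 members with an ovarian peak, 13 were lower without overlap in one ovarian line and higher without overlap in the other, beside 32.9% of all genes with an ovarian peak. With 2 lists against 2 no single gene can go below an exact two-sided p of 0.333, and with 1 list against 1 there is no test.

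Members thus had more gains than losses of peak number in SKOV3 and LOVO with all peaks, where all genes had more losses than gains. LOVO has no replicates here, and its member total was 72 peaks in control and 73 in knockdown. With the upper 50% of each list, fewer members had more peaks in both lines, and in LOVO they fell from 15 to 4. All genes were not recomputed under that setting. In OVCAR8 and RKO members had more losses than gains, as all genes did, and in RKO both member shares stood near those of all genes. Against the other ovarian control, 5 of 31 members had fewer peaks in the lists labelled SKOV3 knockdown than in OVCAR8 control, beside 14.1% of all genes, and 4 more, beside 11%. In the lists labelled OVCAR8 knockdown 12 of 28 had fewer than in the SKOV3 controls, beside 49.4%, and 2 had more, beside 3.48%. With covered bases in place of peaks, a measure added after seeing the data, 23 of 29 members were lower in OVCAR8 (62.3% of all genes) and 3 higher (19.7%), and in SKOV3 10 of 32 were lower (44.8%) and 15 higher (35%). In LOVO 14 of 31 were lower (62.2%) and 17 higher (37.3%), and in RKO 21 of 35 were lower (58.3%) and 14 higher (41.4%).

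**Figure D4:**
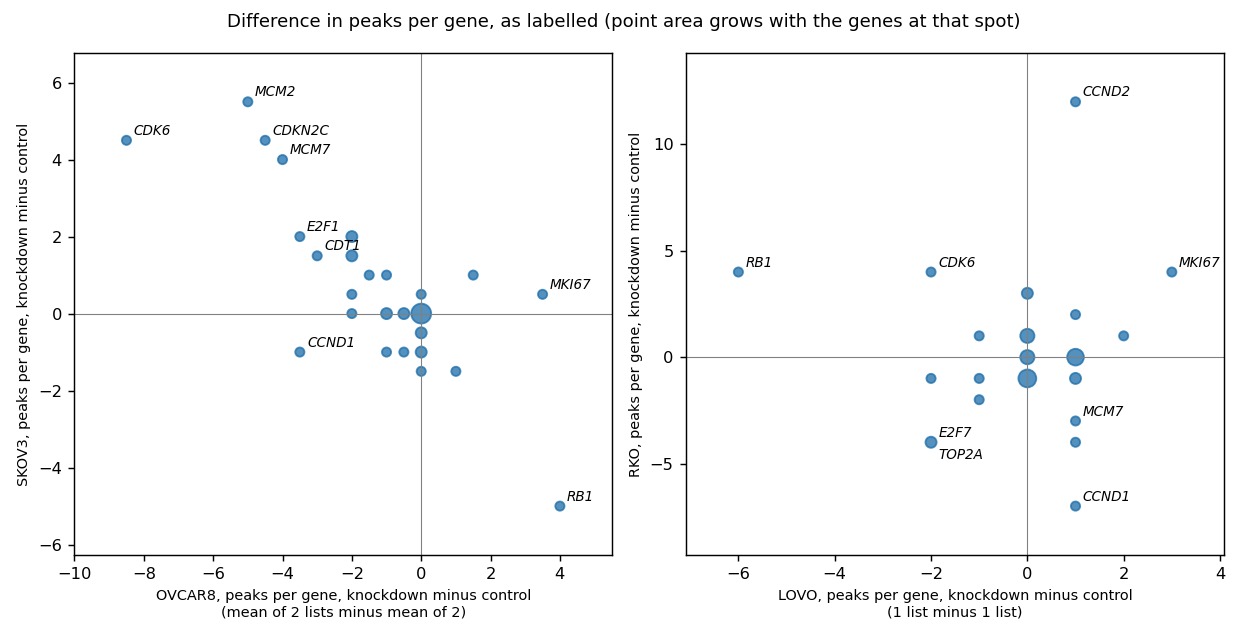
Knockdown minus control difference in peaks per gene for the 40 members with a peak, SKOV3 against OVCAR8 (left, means of 2 lists per group) and RKO against LOVO (right, 1 list per group). CDK6, MCM2, CDKN2C and MCM7 are lower in OVCAR8 and higher in SKOV3 as labelled and RB1 the reverse, and CCND1 and CCND2 are the extremes of RKO.

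Across the 4 lines, 0 of 40 members passed the gene-level test, in which group labels are permuted exactly within each line and the statistic is the mean over lines of the difference in log2(peaks + 1). The smallest two-sided p of its 144 arrangements is 0.0139. P-values were adjusted with the Benjamini-Hochberg method over 19154 genes, of which 0 (0%) passed. A gene could pass only if a large share of all genes reached that smallest p. The absence of passing genes therefore says little about any single gene. At an unadjusted p under 0.05 there was 1 member, MKI67, beside 318 genes (1.66%) in all. MKI67 was higher by 0.52 in knockdown, with the mean higher in each of the 4 lines (exact permutation p = 0.0417, adjusted p = 1). With the upper 50% of each list the difference was -0.22, and without the first list labelled SKOV3 knockdown, or without RKO, the exact permutation p was 0.0833. In covered bases its difference was 0.17 with an exact permutation p of 0.931. CCND1 had a difference of -0.92 (exact permutation p = 0.208, adjusted p = 1), which was -0.23 without RKO. The 40 members had a median difference of -0.09, beside -0.13 over all genes tested, with 23 lower, 13 higher and 4 at 0. RB1 and CDK6, with the most peaks, had -0.04 and -0.01, since their lines went opposite ways.

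Along the genes, peaks on the strand of the gene were placed by their midpoint. Between 11.8% and 23.5% of the members' peaks lay within 1 kb of the gene start, beside 8.29% to 13.2% in protein-coding genes. The lowest member value was that of LOVO control, with 6 of 51 peaks, and the highest that of LOVO knockdown, with 12 of 51. The last 10% of the gene held 14.7% to 23.6% of member peaks, beside 16.7% to 23.8%. For the 35 members with a strand in the tables used here, 83.3% to 100% of peaks lay on the strand of the gene. The lowest value was that of the list labelled RKO knockdown, with 11 of 66 on the opposite strand, and in all genes that list also had the lowest share, 80.0% beside 87.0% to 88.4% in the other lists.

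Of 87 other cell cycle genes, chosen with the members, 69 carried a peak. The 6 with the most peaks on average were MAD1L1, CENPF, INCENP, FZR1, TFDP2 and CCNF. MAD1L1, a partner of the spindle checkpoint protein MAD2L1, had 24 and 22 peaks in the OVCAR8 controls, 25 and 21 in the lists labelled OVCAR8 knockdown, 44 and 41 in the SKOV3 controls, 29 and 31 in the lists labelled SKOV3 knockdown, 25 and 40 in LOVO, and 15 and 12 in RKO. So MAD2L1 had no peak in any list while its partner gene, which is longer, had peaks in all 12. In the gene-level test 0 of these 69 genes passed after adjustment and 1 had an unadjusted p under 0.05. As labelled, they lost 66 of 153 regions of OVCAR8 control (43.1%, beside 56.7% in all genes). Of SKOV3 control they lost 54 of 175 (30.9%, beside 42.2%). In LOVO they lost 75 of 209 (35.9%, beside 36.9%) and in RKO 134 of 219 (61.2%, beside 59.6%).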

How the data were processed

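Peaks of m6A were analysed for 46 genes in 12 lists. The submitters' processing notes name MACS2 2.2.7.1, HISAT2 2.1.0, Bowtie2 2.4.2, Trim Galore 0.6.6 and build hg38, with no role or order. For OVCAR8 and SKOV3 the authors deposited 1 list per library, with a fold enrichment (a ratio) and p and q values as −log10. The colorectal lines have a single deposited list for each group, with a score that no header explains; the sources used here do not give how its 2 libraries entered. Spike-in and input values were not used here.

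Autosomal and X-linked peaks were assigned to every gene body they overlapped by 1 bp (RefSeq, GRCh38.p14). Overlap with a region required the same strand. Gene strand was known for 35 members, from the promoter table, and 3087 of 3087 overlapping windows of opposite strands matched as reverse complements. The gene-level test was an exact stratified permutation of log2(peaks + 1) over 144 arrangements, checked on simulated data, with Benjamini-Hochberg adjustment over 19154 genes. Replicate numbers did not pair the ovarian lists: deviations of same-numbered lists correlated at 0.0087 in OVCAR8 and -0.0084 in SKOV3. The 14 members with most peaks, those with an unadjusted p under 0.05 and those differing without overlap in 3 or more lines are given in every list. In LOVO and RKO, with 1 list per group, any difference counted as without overlap. The members, the gene lists and this rule were chosen with earlier results of these data known. Python 3.11.15, numpy 2.4.6, pandas 2.3.3 and scipy 1.17.1 were used. Alternatives were other overlap rules, thresholds, scalings, strata and lists left out.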

Additional observations from a re-analysis of the deposited data

Results flagged for a closer look

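For 13 members the knockdown minus control difference in mean peaks had opposite signs in OVCAR8 and SKOV3 as labelled, with every knockdown list on one side of every control list in each line. That is 38.2% of the 34 members with an ovarian peak, beside 32.9% of 13347 genes. The difference between the lines was not tested, and it rests on line labels that the shared peaks call into question. Subtracting the SKOV3 difference from the OVCAR8 difference gave -13 peaks for CDK6, -10.5 for MCM2, -9 for CDKN2C, -8 for MCM7 and -5.5 for E2F1. The result was -4.5 for CDT1, -4 for AURKA, -4 for MCM3, -3.5 for AURKB, -3.5 for CCND3 and -2 for TOP2A. It was 9 for RB1 and 2.5 for WEE1, the 2 members that were higher in knockdown in OVCAR8 and lower in SKOV3.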

How the results depend on the processing

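The shares of control regions lost, the members with fewer or more peaks, the members past the gene-level test and the differences of the named genes were recomputed under the alternatives. Other values were not. The shares lost and the counts with fewer or more peaks were recomputed for the members only. Except for covered bases and the other ovarian control, given above, no value of all genes at the same setting stands beside them. With equal numbers of peaks per list, OVCAR8 lost 28.6% of member regions in place of 54.3%, members with fewer peaks numbered 5 in OVCAR8, 3 in SKOV3 and 5 in LOVO, and those with more 5 in OVCAR8. With the control lists of the other ovarian line, the lists labelled OVCAR8 knockdown lacked 34.5% of regions and 4 members had more peaks in those labelled SKOV3 knockdown. With the upper 50% of each list, LOVO lost 57.9% and RKO 59.5%, 11 members were lower in OVCAR8, and 7 were higher in SKOV3 and 4 in LOVO. Peaks on the gene's strand left 5 members lower in LOVO. Covered bases, added after seeing the data, gave 10 lower in SKOV3 and 14 in LOVO. Leaving out 1 ovarian list gave 51.9% to 60% lost in OVCAR8 and 24.6% to 27.7% in SKOV3, 17 to 20 members lower in OVCAR8 and 7 to 9 in SKOV3, and 3 to 4 higher in OVCAR8 and 11 to 14 in SKOV3.

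In the gene-level test 0 members passed under each of the 19 alternatives run. The few arrangements keep the smallest possible p high, so a pass was hardly within reach in any of them. With the ovarian lines alone no gene could reach an unadjusted p under 0.05. With replicate block, 0 members passed, and 0 members and 105 genes had an unadjusted p under 0.05. The smallest exact permutation p possible there was 0.0313. At an unadjusted p under 0.05 there were 10 of 40 members (25%) with shares of gene-assigned peaks, a scaling that moves the median of all genes by 0.33 (log2) and that brings 24.1% of all genes under 0.05, and 3 of 40 (7.5%) with covered bases, beside 5.38% of all genes. Directions of named genes (log2) reversed in 22 of 317 values. RB1 was 0.23 with equal numbers, 0.036 with the upper 50%, 0.28 as shares, 0.20 in the ovarian lines and -0.092 to 0.0029 over the lists left out, reversing without SKOV3 control replicate 1. CDK6 was 0.32 as shares, -0.045 to 0.021 over the lists left out, reversing without OVCAR8 knockdown replicate 1 (0.021) or SKOV3 knockdown replicate 1 (0.0096). With the upper 50% MKI67 was -0.22, MCM2 0.25, MCM7 -0.27 and CDT1 -0.45. With equal numbers MCM2 was 0.092 and MCM7 -0.052. MCM7 was -0.088 to 0.16 over the lists left out, reversing without OVCAR8 knockdown replicate 1, and MCM5 0.25 as shares. In covered bases E2F3 was -0.077, MCM5 0.033 and WEE1 0.13. CDT1 was -0.29 and E2F1 -0.31 in the ovarian lines, and E2F1 -0.0098 without RKO. The causes were not tested. MKI67 kept a p under 0.05 in 7 of 8 leave-one-out fits; without SKOV3 knockdown replicate 1 its exact permutation p was 0.0833.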
